A study of Drosophila melanogaster with 36 samples.

Results

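Cytosolic ribosomal protein genes were the subject here: the 92 of 13945 protein-coding genes of the Ensembl BDGP6 annotation whose symbol starts with RpL or RpS followed by a digit or P. By symbol, 54 are RpL genes, named for the large subunit, and 38 RpS genes, named for the small subunit, and among all 92 there are 5 whose symbol ends in -like. Mitochondrial ribosomal protein genes and the S6 kinase gene are not among them. A gene was counted as bound in a line when a deposited region lay within 500 bp of any of its annotated transcript starts.

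Each cytosolic ribosome is built from a small subunit, which reads the mRNA, and a large subunit, which joins amino acids, and a cell must make their proteins in equal amounts. In Drosophila, losing a copy of many of these genes gives the Minute phenotype of slow growth and short bristles. Their promoters are known for a TCT initiator, a pyrimidine-rich start that differs from the usual initiator and sets where and through which factors transcription begins, and they are among the most actively transcribed promoters of growing cells. Dfd, Ubx and Abd-B are Hox proteins, homeodomain factors that specify segments along the body axis. Hth is a TALE homeodomain cofactor that brings Exd to the nucleus and to Hox sites, and Gcm is a zinc-binding factor of glia and blood cells.

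Binding was measured by anti-GFP ChIP-Seq in 12 stable lines of Kc167, a Drosophila cell line with features of hemocytes, with 2 biological replicates and 1 input library per line, 36 libraries in all. All lines carried the transgenes under the copper-inducible metallothionein promoter, were selected with puromycin and were sorted by FACS for GFP, and eGFP was fused to the Hox protein, or to Hth or Gcm where no Hox protein was expressed. The lines differed in induction. Dfd received 2 mM CuSO4 for 24 h, Dfd+Hth 2.66 mM for 22 h, Dfd+Gcm 3.2 mM for 24 h and Dfd+Hth+Gcm 3.7 mM for 22 h, while Ubx, Ubx+Hth and Hth received 1 mM for 18 h. Ubx+Gcm, Ubx+Hth+Gcm, Abd-B+Hth and Gcm received 2.5 mM for 24 h, and Abd-B 0.5 mM for 24 h. Per line, regions called in both replicates were deposited as merged coordinates, at q 1e-2 and at a stricter q 1e-10. These lists hold no reads, scores or values per replicate, so the depth behind a call is unknown from them, each line is 1 list, and no comparison between lines has a replicate test. Depth did differ between lines. The read overview of the authors gives both Abd-B and both Hth replicates more mapped reads than any replicate of Dfd, Dfd+Hth or Dfd+Gcm. It does not list Dfd+Hth+Gcm or Ubx+Hth+Gcm. Counts were not adjusted for depth, and its part in the differences between lines was not tested. Shares of genes carry 95% exact (Clopper-Pearson) binomial intervals, which cover the counting of genes only. The lists held 4885 to 13741 regions at q 1e-2 and 1832 to 10375 at q 1e-10, and between 34% and 58.7% of the regions at q 1e-2 lay within 500 bp of a transcript start.

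The feature these genes share most clearly is the initiator. A TCT initiator was counted when the word CCTTT or TCTTT lay on the coding strand with its second base within 5 bp of an annotated start, and 56 of the 92 genes (60.9%) had at least 1. Of all protein-coding genes 3.31% did, as did 2.74% of 73 mitochondrial ribosomal protein genes, 11.8% of 51 translation factor genes, 6.25% of 48 proteasome subunit genes and 11.1% of 18 aminoacyl-tRNA synthetase genes. The reference sequences below, of Release 6 (dm6), run from 10 bases before a start to 20 bases from it on, with the initiator word in capitals where one was found. They are shown in this order because RpL30 had regions in every line, RpL3 and RpS3A in 11, RpS25 in 6, RpS3 and RpL40 in 1 and RpL24 in none, while RpL22 (every line), RpL10Aa and RpS10a (no line) lack the word within 5 bp of the start (that of RpL22 has TCTTT further downstream).

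RpL30, chr2L:19009218-19009247, minus strand: cgcctgttcttccTCTTTcttttgccattg
RpL3, chr3R:11221884-11221913, plus strand: gtcggaatcgttTCTTTtccgttttacacg
RpS3A, chr4:67188-67217, minus strand: caacgtgattcgaCCTTTtccggtttatta
RpS25, chr3R:11216268-11216297, minus strand: tttccgccctccaTCTTTctgcattgactt
RpS3, chr3R:23358802-23358831, plus strand: ggcacactggccTCTTTcttttctgcgcac
RpL40, chr2L:4227689-4227718, plus strand: ggcggccacactcTCTTTtccctttttctt
RpL24, chr2L:13395073-13395102, minus strand: cacttccgtttTCTTTtcttttcgtgtttc
RpL22, chrX:765111-765140, minus strand: gcttccgccttctgttctttttcctcgtgg
RpL10Aa, chr3R:15037356-15037385, plus strand: tacatttcaaattttgtgcttgtagaattg
RpS10a, chr3R:27652750-27652779, plus strand: ttcggtaaatactaatttaagctggccaca

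The initiator was present at both ends of this range. It occurred in 22 of the 29 genes with regions in 10 or more lines (75.9%) and in 3 of the 6 genes with no region. In the Abd-B line it was found in 50 of 82 bound genes (61.0%) and in 6 of the 10 others (60.0%), and in the Dfd line in 38 of 63 (60.3%) and 18 of 29 (62.1%). The word was thus about as frequent among unbound as among bound ribosomal protein genes in these 2 lines. RpL30 encodes a large subunit protein, RpL3 lies close to the centre where peptide bonds form, and RpS3 forms part of the mRNA entry channel.

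Regions near ribosomal protein genes were frequent at q 1e-2 in lines of each Hox protein. In the Dfd line 63 of the 92 genes had a region (68.5%, interval 58.0 to 77.8), compared with 39.9% of all protein-coding genes, which is 1.72 times that share. Dfd+Hth had a region at 51 (55.4%, 44.7 to 65.8, against 35.6%) and Dfd+Gcm at 54 (58.7%, 47.9 to 68.9, against 36.6%). With both cofactors, 36 genes had a Dfd region (39.1%, 29.1 to 49.9, against 28.9%). All Dfd lines were thus above the share of all genes, by the smallest ratio with both cofactors.

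Ubx alone had a region at 35 genes (38.0%, 28.1 to 48.8, against 25.1%), and Ubx+Gcm at 62 (67.4%, 56.8 to 76.8, against 42.2%). Ubx+Hth+Gcm had a region at 38 (41.3%, 31.1 to 52.1, against 32.0%). Ubx+Hth bound only 10 genes (10.9%, 5.34 to 19.1, against 15.2%). It was the line with the lowest count and the only one of the 12 in which the share of ribosomal protein genes was below that of all genes, although its interval holds the latter.

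Abd-B had a region at 82 genes (89.1%, 80.9 to 94.7, against 54.4%) and Abd-B+Hth at 76 (82.6%, 73.3 to 89.7, against 53.0%). Hth alone was found at 70 (76.1%, 66.1 to 84.4, against 40.2%), the highest ratio to all genes at 1.89. Gcm alone was found at 40 (43.5%, 33.2 to 54.2, against 27.9%). At q 1e-2 the interval lay above the share of all genes in 10 of the 12 lines and held it in Ubx+Hth and Ubx+Hth+Gcm.

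**Figure D1:**
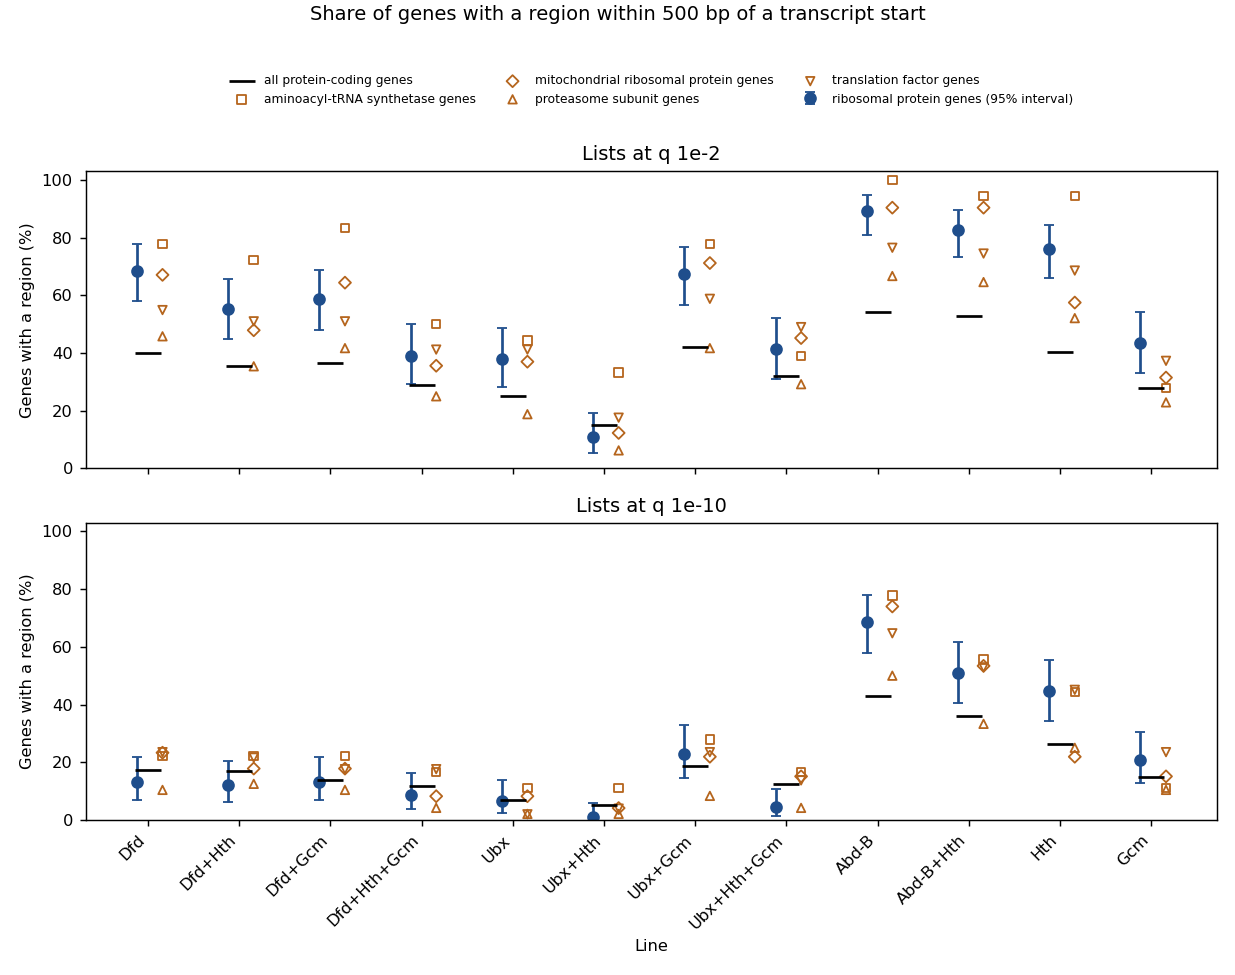
Share of genes (%, vertical axes) with a region within 500 bp of a transcript start in each of the 12 lines (horizontal axis), at q 1e-2 (top) and q 1e-10 (bottom); filled circles with bars are the 92 ribosomal protein genes with 95% exact intervals, black dashes all 13945 protein-coding genes and open symbols the 4 other gene lists. At q 1e-2 the circles lie above the dashes in every line but Ubx+Hth, and at q 1e-10 in Ubx+Gcm, Abd-B, Abd-B+Hth, Hth and Gcm.

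The stricter lists gave another picture for Dfd and Ubx. At q 1e-10 Dfd had a region at 12 of the 92 genes (13%, 6.93 to 21.7, against 17.2% of all genes), Dfd+Hth at 11 (12%, against 17.0%), Dfd+Gcm at 12 (13%, against 14.0%) and Dfd+Hth+Gcm at 8 (8.70%, against 11.8%). Ubx had 6 (6.52%, against 7.00%), Ubx+Hth 1 (1.09%, 0.0275 to 5.91, against 5.29%), Ubx+Gcm 21 (22.8%, against 18.6%) and Ubx+Hth+Gcm 4 (4.35%, 1.2 to 10.8, against 12.3%). In 7 of these 8 lines the share of ribosomal protein genes was below that of all genes, and in Ubx+Hth+Gcm the interval excluded it. The order depended on the number of annotated starts. Among genes with 1 start, Dfd had a region at 14.6% of ribosomal protein genes and 11.9% of all genes, and Ubx at 6.25% and 3.86%. In this class only Ubx+Hth (2.08% and 2.51%) and Ubx+Hth+Gcm (6.25% and 7.30%) were below all genes. Among genes with 2 starts the Dfd shares were 13.8% and 24.9%.

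Abd-B and the factors without a Hox protein kept the higher share. At q 1e-10 Abd-B had a region at 63 genes (68.5%, 58.0 to 77.8, against 42.8%), Abd-B+Hth at 47 (51.1%, 40.4 to 61.7, against 36.0%) and Hth at 41 (44.6%, 34.2 to 55.3, against 26.2%), and these are the 3 lines whose interval lay above the share of all genes. Gcm had 19 (20.7%, 12.9 to 30.4, against 15.0%).

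The step between both lists shows how many of the calls passed the stricter threshold. Of the 63 ribosomal protein genes bound in the Dfd line at q 1e-2, 12 were also bound at q 1e-10 (19%, 10.2 to 30.9), whereas 43.0% of all genes bound by Dfd were. For Dfd+Hth the shares were 21.6% and 47.7%, and for Ubx+Hth+Gcm 10.5% and 38.3%. For Ubx they were 17.1% (6.56 to 33.6) and 27.9%, and for Ubx+Gcm 33.9% (22.3 to 47.0) and 44.1%, so that here the interval held the share of all genes. In the Abd-B line, by contrast, 63 of 82 were kept (76.8%, 66.2 to 85.4) beside 78.5% of all genes, and for Hth 41 of 70 (58.6%, 46.2 to 70.2) beside 65.1%. Most bound genes in the Dfd and Ubx lines thus passed only the more lenient threshold, among all genes as among ribosomal protein genes, and most of those of Abd-B and Hth passed both. The lists hold no enrichment value, so how far a region lay above the lenient threshold is not known.

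Number of starts and neighbouring genes both differ between these genes and all genes. Of the 92 genes 48 had 1 annotated start (52.2%), against 73.5% of all genes, and 37 (40.2%) had a start of another protein-coding gene within 500 bp, against 30.9% of all genes. Among genes with 1 start, Dfd had a region at 60.4% of ribosomal protein genes and 32.5% of all genes, Abd-B at 83.3% and 47.3%, and Hth at 70.8% and 32.2%. Among genes with no neighbouring start, the shares were 61.8% and 29.8% for Dfd, 81.8% and 42.0% for Abd-B and 69.1% and 29.8% for Hth. In the Dfd, Abd-B and Hth lines the difference from all genes at q 1e-2 was therefore present within either class. Genes with more starts were mixed. With 3 or more starts, Gcm had a region at 33.3% of ribosomal protein genes and 61.3% of all genes. Ubx had 53.3% and 60.8% there and Dfd 80.0% and 73.3%, and with 2 starts Ubx had 37.9% of both. A region near a start shared with a neighbouring gene cannot be assigned to one of the genes. This holds for RpL13, which starts near Dref, the gene of the DNA replication-related element factor, for RpL28 near eIF1, RpLP0-like near 14-3-3zeta, RpS15Ab near Lsm10, RpS28a near Axn and Mgat2, RpL14 near Nelf-E, RpS19a near Rok, RpL7-like near JhI-21, and RpL41 near NaCP60E. It also holds, among others, for RpL3, RpL4, RpL7, RpL13A, RpL18, RpL19, RpL24-like, RpL29, RpL31, RpL32, RpL34a, RpL34b, RpL36, RpLP0, RpLP1, RpS13, RpS14a, RpS16, RpS18, RpS19b, RpS20, RpS21, RpS25, RpS27 and RpS27A.

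Other housekeeping lists had comparable shares. At q 1e-2 the Dfd line had a region at 67.1% of mitochondrial ribosomal protein genes, 54.9% of translation factor genes, 45.8% of proteasome subunit genes and 77.8% of aminoacyl-tRNA synthetase genes. The corresponding Abd-B shares were 90.4%, 76.5%, 66.7% and 100%. The 68.5% and 89.1% of the ribosomal protein genes lay inside both of these ranges. For Hth, 57.5% of mitochondrial and 76.1% of cytosolic ribosomal protein genes had a region, and 94.4% of the synthetase genes. With Ubx+Hth the 4 lists had 12.3%, 17.6%, 6.25% and 33.3%, in the same order, beside 10.9% for the ribosomal protein genes. In the Dfd, Abd-B and Hth lines all of these lists were above the share of all genes at q 1e-2. This did not hold in every line. Proteasome subunit genes had 18.8% with Ubx (against 25.1% of all genes), 41.7% with Ubx+Gcm (against 42.2%) and 22.9% with Gcm (against 27.9%). The frequent binding at q 1e-2 was thus shared with other lists of housekeeping genes in some lines, and no list was tested against another.

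Taking the genes by their role, the large subunit proper (46 genes, without stalk, ubiquitin fusion and -like genes) and the small subunit (35 genes) had shares in the same range. Dfd had a region at 31 (67.4%) and 27 (77.1%), Abd-B at 43 (93.5%) and 31 (88.6%), Hth at 33 (71.7%) and 30 (85.7%), and Ubx+Hth at 7 (15.2%) and 3 (8.57%). The proteins of the stalk, RpLP0, RpLP1 and RpLP2, which recruit translation factors to the large subunit, all had Abd-B and Abd-B+Hth regions at q 1e-10, and none had a region of another line at that threshold. RpLP0 was bound in 10 lines at q 1e-2, RpLP1 in 7 and RpLP2 in 3.

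RpL40, RpS27A and RpS30 are made as fusions to ubiquitin or a ubiquitin-like protein. RpS30 had regions in 9 lines and RpS27A in 3 (Abd-B, Abd-B+Hth and Hth), while RpL40 had a region of Gcm alone, 387 bp wide and 88 bp downstream of its start. RpL5 and RpL11, which bind 5S rRNA together, had regions in 10 and 3 lines. RpS6, the substrate of S6 kinase, had regions in 11 lines and RpL32, widely used as the reference gene rp49, in 7. Genes whose products act together in the ribosome therefore differed widely in the number of lines.

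**Figure D2:**
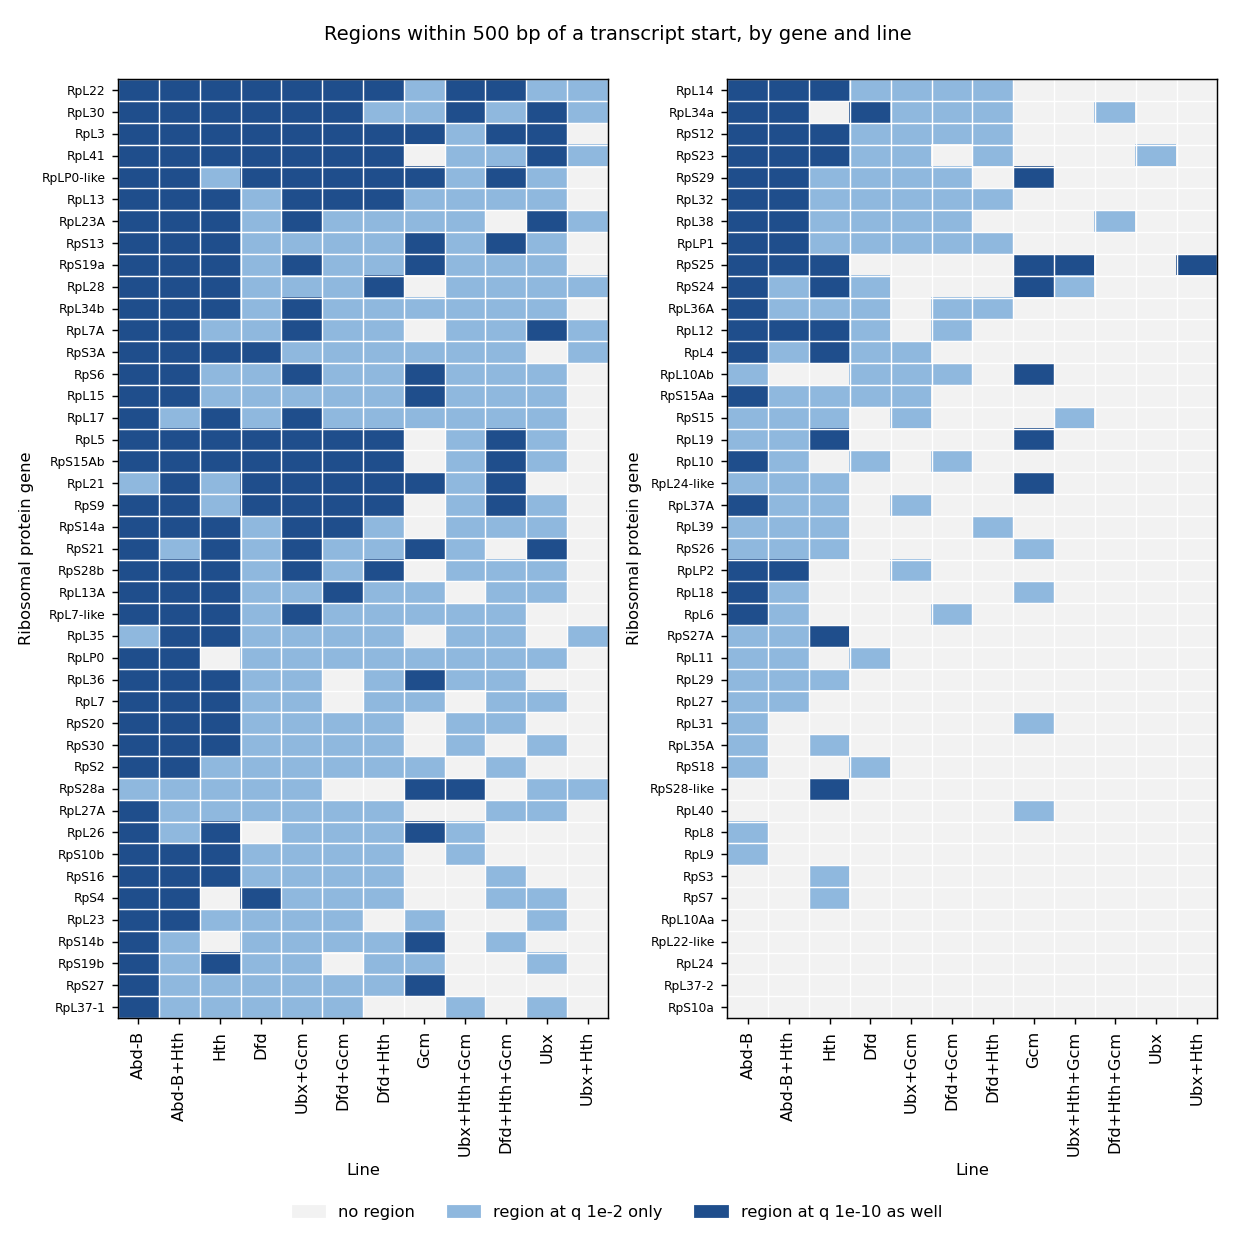
Calls for 86 of the 92 ribosomal protein genes (rows, in 2 panels, from the most to the fewest lines) in each of the 12 lines (columns, from the most to the fewest genes); pale blue marks a region at q 1e-2 only, dark blue a region at q 1e-10 as well and grey no region within 500 bp of a transcript start. Abd-B fills 77 of these rows and Ubx+Hth 10, and 5 genes at the bottom have no region in any line.

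Across the 12 lines, 86 of the 92 genes (93.5%) had a region in at least 1 line at q 1e-2, compared with 63.4% of all genes, and the median gene had a region in 7 lines, compared with 3. Regions in 10 or more lines were found at 29 genes (31.5%, against 21.1% of all genes). Binding in every line was nevertheless rare. It was seen at 2 genes (2.17%), RpL22 and RpL30, while 1100 of all genes (7.89%) had it. Of the 15 genes with regions in 11 lines, 10 lacked only Ubx+Hth, among them RpL3, RpL13, RpL15, RpL17, RpL34b, RpLP0-like, RpS6, RpS13 and RpS19a. RpL28, RpL41 and RpL7A lacked only Gcm, RpL23A only Dfd+Hth+Gcm, and RpS3A, the only one of these genes on chromosome 4, only Ubx. At q 1e-10, 71 genes (77.2%) had a region in at least 1 line and none in all 12, and RpL3 had the most, with 10.

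At q 1e-2 the calls were nested. Every ribosomal protein gene with a region in any line that expressed Dfd or Ubx also had one in the Abd-B line, so that all 63 Dfd genes, all 62 Ubx+Gcm genes and all 35 Ubx genes were among the 82 of Abd-B. Of all genes bound by Dfd, by Ubx+Gcm and by Ubx, 96.5%, 97.2% and 99.6% were bound by Abd-B, so this overlap is close to that of all genes, and Abd-B covered 89.1% of the ribosomal protein genes to begin with. Likewise all 35 Ubx genes had a Dfd region, compared with 94.3% of all Ubx genes. Of the 70 Hth genes 67 had an Abd-B region (95.7%, against 96.3% of all Hth genes), and of the 40 Gcm genes 39 (97.5%, against 83.6%). The exceptions were RpS3, RpS7 and RpS28-like, which had a region of Hth and of no other line, and RpL40 with Gcm. RpL8 and RpL9, both of the large subunit, had a region of Abd-B only. At q 1e-10 the nesting was not complete. Abd-B had a region at 11 of the 12 Dfd genes (91.7%, against 94.9% of all Dfd genes). It had one at 20 of the 21 Ubx+Gcm genes (95.2%, against 97.1%) and at 3 of the 4 Ubx+Hth+Gcm genes (against 94.9%). For Dfd and Ubx+Gcm this overlap was thus close to that of all genes. Dfd had a region at 3 of the 6 Ubx genes (against 84.8% of all Ubx genes).

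RpL22 and RpL30 differ in how the regions lie. RpL22 (FBgn0015288, chrX:762560-765130, minus strand) encodes a large subunit protein whose fly form carries an added histone H1-like stretch. Its regions at q 1e-2 were 586 bp (Ubx+Hth) to 890 bp (Abd-B) wide, with centres from -154.0 bp (Hth) to -390.0 bp (Dfd+Gcm) from the start, negative values lying upstream, and 9 lines also had a region at q 1e-10. At RpL30 (FBgn0086710, chr2L:19008031-19009306, minus strand) they were 314 bp (Ubx+Hth) to 649 bp (Abd-B) wide and their centres fell between -57.5 and 27.5 bp from the nearest start. Centres thus clustered at the start of RpL30 and upstream of that of RpL22. At RpL3 (FBgn0020910, chr3R:11221894-11225173, plus strand) the q 1e-10 region of Ubx was centred at -204.0 bp, that of Hth at -63.5 bp, that of Dfd at 211.0 bp and that of Gcm at 434.5 bp, so that the lines did not share a centre there.

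The promoters of 3 of these genes are shown to set the regions beside their sequence, from 250 bases before the most 5' start to 20 bases from it on. Capitals mark the initiator word and any match, on either strand, to the DRE (TATCGATA), the M1BP motif core (GGTCACAC), the Hth word TGACAG, the 4 Hox words that read C or T, then TAAT, then G or T, then A, the 4 Hox words that read TTTAT, then G or T, then A or G, the Exd-Hox octamers TGATTGAT, TGATTAAT and TGATTTAT, the Gcm words ATGCGGGT, ATGCGGGC, ATACGGGT and ATACGGGC and the BEAF-32 word CGATA, which also lies inside the DRE.

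RpL22, chrX:765111-765380, minus strand: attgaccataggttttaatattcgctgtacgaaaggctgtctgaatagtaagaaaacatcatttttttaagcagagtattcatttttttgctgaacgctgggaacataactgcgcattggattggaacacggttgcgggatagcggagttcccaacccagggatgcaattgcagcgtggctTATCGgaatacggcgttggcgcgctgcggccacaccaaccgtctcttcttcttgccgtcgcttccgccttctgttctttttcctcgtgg
RpL3, chr3R:11221644-11221913, plus strand: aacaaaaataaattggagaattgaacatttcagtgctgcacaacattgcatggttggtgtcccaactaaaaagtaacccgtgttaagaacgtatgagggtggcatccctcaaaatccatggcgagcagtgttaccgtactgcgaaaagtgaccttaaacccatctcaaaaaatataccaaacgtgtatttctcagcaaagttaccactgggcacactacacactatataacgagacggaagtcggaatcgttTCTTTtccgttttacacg
RpL23A, chr3L:1668635-1668904, minus strand: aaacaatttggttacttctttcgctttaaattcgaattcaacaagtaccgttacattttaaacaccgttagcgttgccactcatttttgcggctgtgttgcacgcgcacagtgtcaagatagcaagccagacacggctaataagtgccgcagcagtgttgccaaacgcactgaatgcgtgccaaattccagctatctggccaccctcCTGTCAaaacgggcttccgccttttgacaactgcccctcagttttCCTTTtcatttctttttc

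In these windows the matches were few. The RpL22 window holds the BEAF-32 word on the other strand at position -69 from the start, that of RpL3 holds the initiator alone, and that of RpL23A holds the initiator and a Hth word at -43. None of the 3 holds a Hox word, an Exd-Hox octamer or a Gcm word, although RpL22 had regions in all 12 lines and RpL3 and RpL23A in 11. No match says only that these letters are not in this window.

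Over windows from 250 bases before to 50 bases after the most 5' start, the DRE was found in 28 ribosomal protein genes (30.4%, against 9.36% of all genes), and in 20.5%, 27.5%, 25.0% and 22.2% of the mitochondrial ribosomal protein, translation factor, proteasome and synthetase genes. The M1BP motif core was found in 14 (15.2%, against 7.70%), the BEAF-32 word in 67 (72.8%, against 47.4%) and the TATA box word TATAAA in 44 (47.8%, against 45.8%). In the order above, the other lists had the BEAF-32 word at 58.9%, 62.7%, 72.9% and 72.2%, so its share was no higher than in proteasome or synthetase genes. The GAGA word GAGAG was less frequent, in 16 (17.4%, against 29.7%). In the same order, it was also less frequent in the other lists, at 16.4%, 15.7%, 18.8% and 22.2%. Of the words of the expressed factors, the Hth word was found in 19 (20.7%, against 11.8%), the 4 Hox words with a TAAT core in 30 (32.6%, against 23.9%), those with a TTAT core in 33 (35.9%, against 39.0%), the octamers in 4 (4.35%, against 6.81%) and the Gcm words in 0 (against 0.947%). The Hth word was in 5.48%, 27.5%, 6.25% and 22.2% of the other lists, and so in a larger share of translation factor and synthetase genes. The DRE and M1BP shares were thus further from those of all genes, as ratios, than the shares of the Hox words.

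In the regions themselves, a 200 bp window on the centre was searched for the same words. The Hth word was in 15 of the 42 Hth regions at ribosomal protein genes at q 1e-10 (35.7%) and in 14.8% of the 3228 Hth regions at other starts, and at q 1e-2 in 18 of 74 (24.3%, against 12.1%). The Abd-B words with a TTAT core were in 18 of 68 Abd-B regions at q 1e-10 (26.5%, against 30.6% at other starts), and the Hox words with a TAAT core in 2 of 12 Dfd regions (16.7%, against 29.3%). In Ubx regions the latter were in 9 of 37 at q 1e-2 (24.3%, against 13.4%) and in 0 of 6 at q 1e-10 (against 14.3%). For Hth the share of regions with its word was higher than at other starts at both thresholds, for Ubx at q 1e-2 alone and for Abd-B and Dfd at neither. The Hth words in the q 1e-10 Hth regions of RpL23A, RpL14 and RpL5 are given with 12 bases on either side and the word in capitals, on the strand that reads TGACAG, since they lie within 100 bp of the start.

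RpL23A, chr3L:1668680-1668709, plus strand: ggaagcccgtttTGACAGgagggtggccag
RpL14, chr3L:8600897-8600926, minus strand: aaatagttaatgTGACAGtaaatcatacac
RpL14, chr3L:8600979-8601008, minus strand: aaagaactttttTGACAGctcggtggtagc
RpL5, chr2L:22536920-22536949, plus strand: gtatgaacgataTGACAGgtttacactgct

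The middle of the word lies at -40.5 bp from the start of RpL23A, at -94.5 and -12.5 bp from that of RpL14 and at -50.5 bp from the start of RpL5. The Exd-Hox octamers were in 1 of 52 Dfd+Hth regions at q 1e-2 (1.92%, against 7.66% at other starts). Octamers also occurred in the Ubx+Hth regions of RpL35, RpS28a and RpL28 at q 1e-2. No share at other starts was computed for Ubx+Hth.

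At q 1e-2 regions of the Hox proteins lay upstream of the start more often than downstream. In the Dfd line 13 of 66 region centres at ribosomal protein genes (19.7%, 10.9 to 31.3) were downstream of the nearest start, compared with 36.5% at other genes. For Ubx this was 5 of 37 (13.5%, 4.54 to 28.8, against 35.0%) and for Abd-B 23 of 96 (24.0%, 15.8 to 33.7, against 36.5%). The median centre was at -91.0 bp for Dfd, -160.5 bp for Ubx and -105.0 bp for Abd-B, and at other genes at -61.5, -67.5 and -65.5 bp. For Hth it was at -60.8 bp (-47.0 bp at other genes), with 27 of 74 centres downstream (36.5%, 25.6 to 48.5, against 39.6%). At this threshold the lean to the upstream side was thus stronger at ribosomal protein genes than at other genes for these 3 Hox proteins and near that of other genes for Hth. At q 1e-10 it held for Abd-B, with 15 of 68 centres downstream (22.1%, 12.9 to 33.8, against 34.0%) and a median of -103.2 bp against -60.0 bp. The few Dfd regions gave no clear lean there, with 3 of 12 downstream (25.0%, 5.49 to 57.2, against 36.2%) and a median of -49.5 bp against -65.0 bp. None of the 6 Ubx centres was downstream (against 29.6%), and 4 of the 8 Dfd+Hth+Gcm centres were downstream (against 38.2%). Positions were not compared for genes without a neighbouring start alone. Such a start was more frequent at ribosomal protein genes (40.2%, against 30.9% of all genes), so some upstream centres cannot be assigned to 1 gene. At other genes a region near several genes entered more than once (for Dfd at q 1e-2, 6865 entries from 5082 regions).

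Gcm was the exception to the lean to the upstream side. At q 1e-2, 26 of 43 Gcm centres lay downstream of the start (60.5%, 44.4 to 75, against 48.9% at other genes), and at q 1e-10 15 of 19 (78.9%, 54.4 to 93.9, against 48.5%), with a median 230.0 bp into the gene. Of these 19 centres, 7 were in introns and 5 in coding exons of the gene, 1 was in an untranslated exon, 4 were upstream and 2 were past the end of the gene. Of the 68 Abd-B centres at q 1e-10, 49 were upstream (72.1%), 17 in untranslated exons, 2 in introns and none in coding exons. Gcm words occurred in 3 of the 19 regions (15.8%, against 19.7% of Gcm regions at other starts). A pair of these sites is printed with 11 bases on either side, the word in capitals, because RpS25 and RpL21 had Gcm words inside the transcribed part.

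RpS25, chr3R:11216096-11216125, minus strand: aaaatgtgaaaATGCGGGCaaaaaacaaaa
RpL21, chr2L:22247597-22247626, minus strand: tgtccacatacATGCGGGTtttcaagatcg

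The word at RpS25 is in an intron, 176.5 bp from the start, and the Gcm region there at q 1e-10 (chr3R:11215909-11216351) was centred 157.0 bp from it. The word at RpL21, a large subunit gene, is in a coding exon 221.5 bp from the start, and the region (chr2L:22247260-22247875) was centred 265.5 bp from it.

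**Figure D3:**
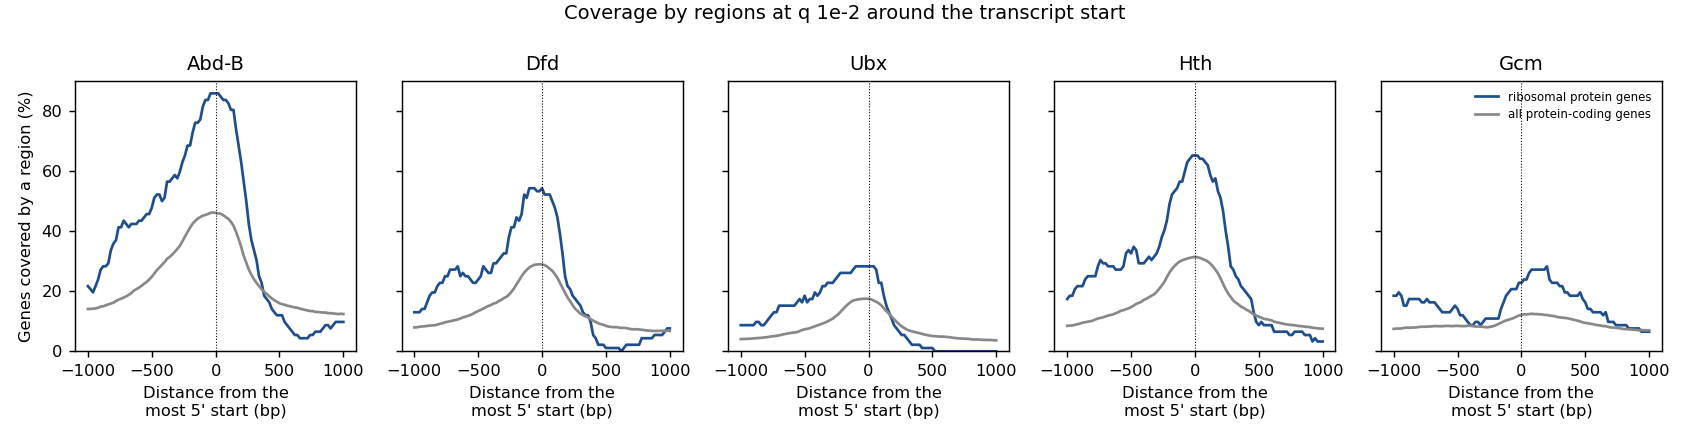
Share of genes (%, vertical axis) covered by a region at q 1e-2 at each distance from the most 5' start (bp, horizontal axis, positive in the direction of transcription), for the lines that express 1 factor; blue is the 92 ribosomal protein genes and grey all protein-coding genes. For Abd-B, Dfd, Ubx and Hth the blue curves are highest at or within 100 bp of the start and drop steeply downstream, while that of Gcm is highest at 200 bp downstream.

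Coverage at fixed distances gave the same order. At the most 5' start, Abd-B covered 85.9% of ribosomal protein genes, Hth 65.2%, Dfd 54.3%, Ubx 28.3% and Gcm 22.8%. Of all genes, Dfd covered 28.9% and Ubx 17.5% there. At 600 bp downstream these had fallen to 6.52% for Abd-B, 8.70% for Hth, 1.09% for Dfd and 0% for Ubx, below the 14.8%, 10.3%, 7.90% and 4.84% of all genes. Gcm still covered 13% there, against 8.71%. Regions at ribosomal protein genes were of ordinary width, with medians at q 1e-2 of 483.0 bp for Dfd (520.0 bp at other genes), 709.5 bp for Abd-B (740.0 bp) and 545.0 bp for Gcm (509.0 bp). The widest region, of Abd-B at RpLP0-like, spanned 2688 bp, and 14-3-3zeta starts within 500 bp of this gene. Other wide regions spanned 2079 bp at RpL38 (Abd-B+Hth) and 1812 bp at RpL7-like (Abd-B). Of the 617 calls of a gene in a line at q 1e-2, 81.7% had a region over a start itself and 65 had the nearest region more than 250 bp away. For Dfd, 79.4% of bound ribosomal protein genes and 80.5% of other bound genes had a region over a start. The shares were 74.3% and 80.1% for Ubx and 96.3% and 89.1% for Abd-B. For Hth they were 87.1% and 85.5%, and for Gcm 60.0% and 56.3%. The nearest calls inside the limit were RpL23 and RpL31 with Gcm, at 499 and 496 bp. The nearest outside were RpS12 with Gcm at 502 bp and RpS14b with Hth at 510 bp. Next came RpL26 with Dfd+Hth+Gcm and RpS23 with Ubx+Hth, both at 511 bp.

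In the lines with Hth, each Hox protein had a region at fewer ribosomal protein genes than alone. Between Dfd and Dfd+Hth 14 genes lost a region and 2 gained one, between Ubx and Ubx+Hth 28 and 3, and between Abd-B and Abd-B+Hth 6 and 0. As a share of those bound without Hth, 22.2%, 80.0% and 7.32% were lost, beside 17.4%, 49.3% and 6.51% of all genes. As a share of those unbound without Hth, 6.90%, 5.26% and 0% were gained, beside 4.41%, 3.26% and 4.50% of all genes. All genes thus moved the same way, and for Ubx the loss at ribosomal protein genes was the larger share. Each of these pairs compares 1 list with 1 list and cannot be tested. CuSO4 dose or time differed within the Dfd and Abd-B pairs and was equal in the Ubx pair.

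The genes that Dfd gained with Hth were RpL26, with a region of 953 bp, and RpL39, with 1077 bp. Among the widest Dfd regions without a counterpart were those at RpL37-1 (659 bp), RpL38 (507 bp), RpS18 (422 bp) and RpS29 (397 bp). Ubx gained RpS25, RpL35 and RpS3A and lost, among the widest, RpL3 (980 bp), RpS23 (945 bp), RpS21 (887 bp), RpL13A (766 bp) and RpS9 (742 bp). The 10 genes bound by Ubx+Hth were RpL22, RpL30, RpL23A, RpL28, RpL7A, RpL41 and RpS28a, which Ubx also bound, and the 3 gained ones. Abd-B lost RpL35A, RpL9, RpL10Ab, RpL8, RpS18 and RpL31, all with regions of 266 to 518 bp. The nearest Abd-B+Hth region to RpL8 lay 583 bp from its start, outside the limit. Hth alone had a region at 26 of the 28 genes that Ubx lost (92.9%, against 83.6% of all genes lost), at 10 of the 14 that Dfd lost (71.4%, against 56.7%) and at 1 of the 6 that Abd-B lost. For Abd-B this compares with 39.7% of all genes lost. Among genes that kept a region, the counts were 7 of 7 for Ubx (against 98.1% of all genes kept), 45 of 49 for Dfd (91.8%, against 84.2%) and 66 of 76 for Abd-B (86.8%, against 73.2%). A region of Hth alone was thus less frequent at lost than at kept genes over all genes, and the ribosomal protein genes showed the same order.

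RpS25, a small subunit gene on chr3R:11215028-11216287 (minus strand), differed from most of these genes in its lines. It had regions in 6 lines, Ubx+Hth, Ubx+Hth+Gcm, Abd-B, Abd-B+Hth, Hth and Gcm, and in each of them also at q 1e-10, while no line with Dfd and neither Ubx nor Ubx+Gcm had one. It was the only ribosomal protein gene with a Ubx+Hth region at q 1e-10. That region (409 bp) was centred at -309.0 bp and that of Ubx+Hth+Gcm (407 bp) at -304.0 bp, while the q 1e-10 regions of Hth, Abd-B and Gcm were centred at -237.5, -104.5 and 157.0 bp. CG4820 starts within 500 bp of it, so the upstream regions cannot be assigned to either gene.

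**Figure D4:**
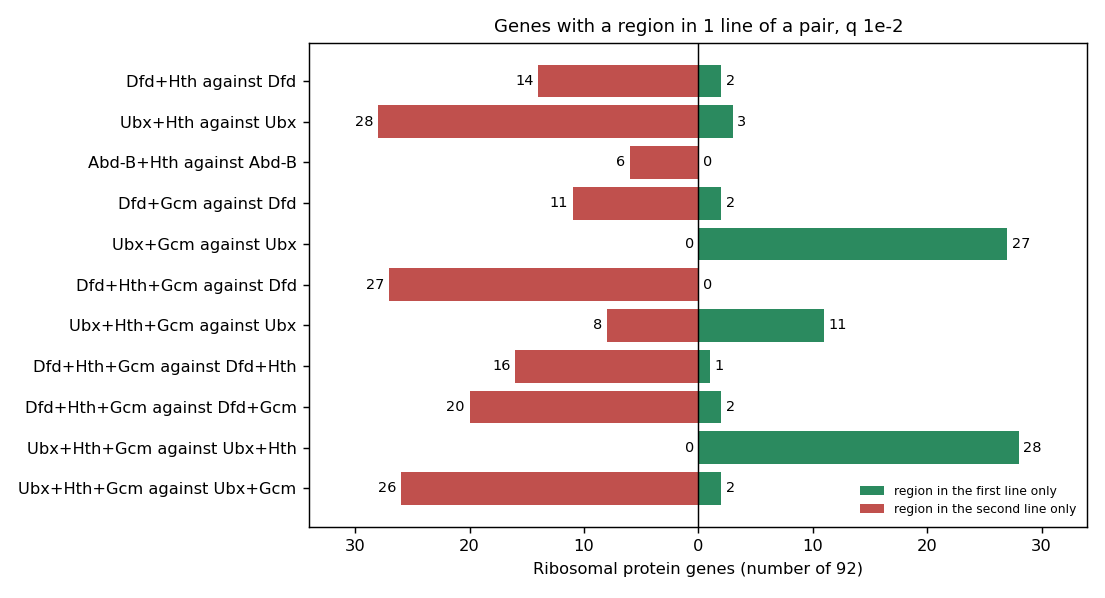
Number of ribosomal protein genes (horizontal axis, of 92) with a region at q 1e-2 in only 1 line of each of 11 pairs; green bars to the right count genes bound in the line named first and red bars to the left those bound in the line named second. Ubx gained 27 genes with Gcm and lost none, whereas Dfd gained 2 and lost 11.

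Gcm went with opposite changes for Dfd and Ubx. Between Dfd and Dfd+Gcm 2 genes gained a region, RpL26 and RpL6, and 11 lost it, among the widest those at RpS23 (983 bp), RpS19b (770 bp), RpL36 (652 bp) and RpS18 (422 bp). The 11 are 17.5% of the genes Dfd bound alone, against 14.2% for all genes, and the 2 are 6.90% of those it did not, against 4.01%, so both shares were near those of all genes. Between Ubx and Ubx+Gcm 27 gained a region and none lost it, with the widest at RpL7-like (1737 bp), RpS20 (948 bp), RpL26 (906 bp), RpS15Aa (781 bp) and RpLP1 (708 bp). The 27 are 47.4% of the 57 genes Ubx did not bind alone, against 23.4% for all genes. Gcm alone had a region at 10 of the 27 (37.0%, against 39.2% of all genes gained) and at 22 of the 35 that Ubx bound with and without Gcm (62.9%, against 59.5%). Gcm itself was thus found at a minority of the genes gained. At q 1e-10 Dfd and Dfd+Gcm both had 12 genes. Between them 3 were gained (3.75% of those unbound, against 1.67% of all genes) and 3 lost (25.0% of those bound, against 26.7%). Ubx+Gcm gained 15 there (17.4% of those unbound, against 12.6%) and lost none. The CuSO4 dose rose from 1 to 2.5 mM and the time from 18 to 24 h between the Ubx lines, which cannot be told apart from the presence of Gcm.

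With Hth present as well, the same contrast held. Ubx+Hth+Gcm had 28 genes that Ubx+Hth lacked (34.1% of those unbound, against 20.4% of all genes) and lost none, among the widest those at RpL7-like (1767 bp), RpL3 (1103 bp), RpL26 (898 bp) and RpS20 (681 bp), and here too dose and time rose. Dfd+Hth+Gcm had 1 gene that Dfd+Hth lacked, RpL38, and lacked 16 (31.4% of those bound, against 22.3% of all genes), among them RpL39, RpS23, RpL26, RpS19b and RpLP1. Compared with the lines with Gcm alone, those with Hth as well lacked 20 genes for Dfd (37.0% of those bound, against 27.4% of all genes) and 26 for Ubx (41.9%, against 28.5%). They had 2 more each. These were RpL36 and RpL7 for Dfd (5.26% of those unbound, against 3.62% of all genes) and RpS24 and RpS25 for Ubx (6.67%, against 3.25%). At q 1e-10, 19 of the 21 genes of Ubx+Gcm (90.5%, against 45.3% of all genes) were without a region in Ubx+Hth+Gcm, at equal CuSO4 and time. Against the Hox protein alone, the lines with both cofactors lacked 27 genes for Dfd (42.9% of those bound, against 32.0% of all genes). They had none more for Dfd (0% of those unbound, against 2.90% of all genes). For Ubx they had 11 more (19.3% of those unbound, against 13.2%) and lacked 8 (22.9% of those bound, against 11.5%). All genes moved the same way in each of these pairs.

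The genes without any region included several copies of a pair. No line had a region at q 1e-2 at 6 genes, among them RpL10Aa, RpL22-like, RpL24, RpL37-2 and RpS10a. Of these, RpL24 is the main gene of its protein, and its nearest region, of Hth, lay 864 bp away. The nearest regions lay 628 bp from RpS10a (Ubx+Gcm), 3104 bp from RpL37-2 (Abd-B), 12515 bp from RpL22-like (Hth) and 12794 bp from RpL10Aa (Gcm). RpL22-like is known for expression in the germ line. The other copy was bound at RpL22 in 12 lines, at RpL37-1 and RpS10b in 8 and at RpL10Ab in 5. The reference proteins of these pairs are identical at 44.5% (RpL22), 75.3% (RpL37), 74.4% (RpS10) and 63.9% (RpL10A) of the residues of the shorter copy.

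Other pairs were both bound. RpS14a and RpS14b, neighbours on the X whose proteins are identical over 151 residues, had regions in 10 and 8 lines, 7 of them shared, and RpS15Aa and RpS15Ab, identical at 97.7%, in 5 and 10. RpL34a and RpL34b (83.3% identical) had regions in 7 and 11 lines, RpS19a and RpS19b (65.8%) in 11 and 8, and RpS28a and RpS28b (82.8%) in 9 and 10. RpS28-like, with 41.5% identity to RpS28b, had a Hth region only. Reads with more than 1 position were not kept by the authors, and of the 31-base words in the windows around the starts 83.4% at RpS14a, 72.2% at RpS14b and 79.1% at RpS15Ab occur once in the genome, which limits what could be called there. At 89 of the 92 genes at least 95% of these words were unique. In yeast the counterparts of RpL24-like, RpL7-like and RpLP0-like help assemble the large subunit and are not parts of the finished ribosome. They are identical to RpL24, RpL7 and RpLP0 at 29.7%, 33.7% and 19.1% of residues, and had regions in 4, 10 and 11 lines, while RpL24, RpL7 and RpLP0 had them in 0, 9 and 10.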

How the data were processed

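Per the labels and methods, alignment to dm6 used Bowtie 1.2.2 and kept reads with 1 position. The authors then ran MACS2 2.1.1.20160309 on each of the 2 replicates against the input, removed regions over exons carried by the plasmids and deposited merged region coordinates at q 1e-2 and q 1e-10. These coordinates are the only values used. The score column holds 0 throughout, and the depth of the 36 libraries is not in the lists. Regions were compared with transcript starts of Ensembl release 115 on Release 6 of the genome, and no region ended beyond a chromosome. The Hth list was identical in the 3 tables that hold it. Members and lists were chosen with earlier results of these data known. No test was run: shares stand beside those of all protein-coding genes.

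Named are genes with no region, regions in 1 line at q 1e-2 or in all 12 at q 1e-10 (none), the members of copy pairs (symbols that differ in a final letter, a final number or -like), genes with a neighbouring start, the 5 widest regions, and genes gained or lost between lines (the 5 with the widest regions where more than 10). RpL22 and RpL30 (all 12 lines at q 1e-2), genes with 11 lines, RpL3, RpL23A, RpL14, RpL5, RpL21 and genes named for their role were chosen after their values were seen. Some genes that the rule names are counted but not reported by name here. Promoters were read from Ensembl starts, since a RefSeq promoter table was not used here. Proteins were translated from the reference and aligned with Biopython 1.88 (BLOSUM62, identity over the shorter protein). Python 3.11.15, numpy 2.4.6, scipy 1.17.1 and matplotlib 3.10.9 were used, and the distance rule was tested on simulated data.

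Alternatives were the q 1e-10 lists, distances of 250 and 1000 bp, the region centre within 500 bp, the most 5' start, genes without a neighbouring start, regions shortened to 400 bp on their centre, no -like genes and each chromosome arm left out.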

Additional observations from a re-analysis of the deposited data

Results flagged for a closer look

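Gcm went with opposite changes for Dfd and Ubx, and the difference was not tested because each line is 1 list. Ubx+Gcm had a region at 27 more ribosomal protein genes than Ubx, while Dfd+Gcm had a region at 9 fewer than Dfd (a change of -9). Over all protein-coding genes the changes were 2391 and -456, so the direction was the same there. In the presence of Hth the change with Gcm was 28 for Ubx and -15 for Dfd, and 2354 and -936 over all genes. At q 1e-10 the number of ribosomal protein genes rose from 6 with Ubx to 21 with Ubx+Gcm. It was 12 with Dfd and 12 with Dfd+Gcm, so the opposite changes were not seen there. Over all genes the Dfd count still fell, from 2393 to 1948. CuSO4 rose from 1 mM for 18 h to 2.5 mM for 24 h in both Ubx comparisons, from 2 to 3.2 mM at 24 h between Dfd and Dfd+Gcm, and from 2.66 to 3.7 mM at 22 h between Dfd+Hth and Dfd+Hth+Gcm. Dose, time and Gcm cannot be told apart.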

How the results depend on the processing

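No paired analysis was possible because both replicates of a line were merged into 1 list. Of 182 values recomputed, 163 stayed within the interval of the main share, or within 1.5 times the main count. The q 1e-10 lists changed every line: Dfd 13%, Dfd+Hth 12%, Dfd+Gcm 13%, Dfd+Hth+Gcm 8.70%, Ubx 6.52%, Ubx+Hth 1.09%, Ubx+Gcm 22.8%, Ubx+Hth+Gcm 4.35%, Abd-B 68.5%, Abd-B+Hth 51.1%, Hth 44.6% and Gcm 20.7%, with 0 genes in all 12 lines. The share exceeded that of all genes in 11 lines in the main counts and in each other alternative, and in 5 at q 1e-10. With the region centre within 500 bp, Dfd+Hth+Gcm had 28.3% and Abd-B+Hth 71.7%. Within 1000 bp, Gcm had 56.5%, and 7 genes had regions in all 12 lines. Without arm 2L or without arm X, 1 gene did, since RpL30 and RpL22 lie there. The lists hold no depth, so a missing region cannot be read as absent binding.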
